A study of Mus musculus with 6 samples.

Results

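The MHC class I pathway, from the proteasome to the heavy chain at the cell surface, was followed in mouse bone marrow after induction of the transcription factor c-Jun. It was read through the 10 genes B2m, H2-K1, H2-D1, H2-T23, Tap1, Tap2, Tapbp, Psmb8, Psmb9 and Psmb10. Members were the probe sets whose symbol in the authors' deposited ANOVA table is 1 of these genes, or a shared entry that holds H2-K1 or H2-D1. This gave 28 of the 45101 probe sets on the array, 27 of them with 1 symbol and 1 shared by H2-D1 and H2-K1, and they covered 9 of the 10 genes, out of 20679 genes with a probe set of 1 symbol. H2-T23 had no probe set of its own, and its shared one is described apart. Whole bone marrow was used, and the study compared 3 control arrays, from mice before induction (day 0), with 3 induced arrays, from mice that drank doxycycline at 1 mg/ml for 24 h (day 1). All mice carried the inducible c-Jun system and were 8 weeks old, and each array held RNA pooled from 3 mice. The promoter that drives the inducible gene, the strain and any other allele are not given in the sources used here, and the code R-K in all 6 sample titles is not explained there. No array of mice given doxycycline without the inducible gene was analysed here, so the antibiotic, the induction and the day cannot be told apart.

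MHC class I molecules display short peptides from inside the cell to CD8+ T cells and to receptors of natural killer cells. The proteasome cuts proteins into peptides, the transporter TAP carries these into the endoplasmic reticulum, and the peptide-loading complex fits them into a heavy chain that is held together by the light chain beta-2 microglobulin. The immunoproteasome is a form of the proteasome in which 3 catalytic subunits are exchanged for the interferon-inducible subunits encoded by Psmb8, Psmb9 and Psmb10. Nearly all nucleated cells carry class I molecules, and leukocytes carry more of them than maturing erythroid cells do.

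The 250 bases before the annotated start of 4 members are shown because B2m, H2-K1 and H2-D1 were the members with the largest changes of (signal + 16), and because Tap1 shares its upstream region with Psmb9. They come from RefSeq (GRCm38.p6), where 9 of the 10 members had an entry and Tap2 did not. Capitals mark matches on either strand to 5 short motifs, namely the AP-1 motif TGANTCA, the CRE core motif TGACG, the CCAAT box CCAAT, the interferon regulatory factor motif AANNGAAA and the kappaB motif (GGGA and CC with any 4 bases between). The motifs were chosen after the windows had been read. Matches to different motifs did not overlap in these windows.
B2m, chr2:122147437-122147686, plus strand: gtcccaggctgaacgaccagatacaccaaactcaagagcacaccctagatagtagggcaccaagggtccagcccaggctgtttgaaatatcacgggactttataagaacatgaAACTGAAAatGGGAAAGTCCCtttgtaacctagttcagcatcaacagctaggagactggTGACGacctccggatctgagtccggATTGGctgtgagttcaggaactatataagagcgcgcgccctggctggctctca
H2-K1, chr17:34000348-34000597, minus strand: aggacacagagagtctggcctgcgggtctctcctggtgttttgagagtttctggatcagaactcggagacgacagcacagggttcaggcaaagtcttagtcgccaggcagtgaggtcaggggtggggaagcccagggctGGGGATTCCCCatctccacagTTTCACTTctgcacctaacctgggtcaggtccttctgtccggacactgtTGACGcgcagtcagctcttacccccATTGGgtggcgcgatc
H2-D1, chr17:35262844-35263093, plus strand: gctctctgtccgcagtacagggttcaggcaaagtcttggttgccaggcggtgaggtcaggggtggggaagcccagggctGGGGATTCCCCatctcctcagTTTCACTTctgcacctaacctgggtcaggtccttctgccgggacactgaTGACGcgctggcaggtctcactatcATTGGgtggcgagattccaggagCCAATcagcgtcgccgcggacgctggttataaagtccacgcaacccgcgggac
Tap1, chr17:34187306-34187555, plus strand: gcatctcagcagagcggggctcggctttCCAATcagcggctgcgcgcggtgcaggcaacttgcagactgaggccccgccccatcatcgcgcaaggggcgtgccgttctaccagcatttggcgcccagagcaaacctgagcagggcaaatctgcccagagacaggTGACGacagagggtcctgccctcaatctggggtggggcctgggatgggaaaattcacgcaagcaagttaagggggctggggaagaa

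The windows of H2-K1 and H2-D1 were alike, with 170 of 190 aligned bases identical (89.5%). Both hold the kappaB match, the interferon regulatory factor match, the CRE core motif and the inverted CCAAT box in the same order. In B2m the interferon regulatory factor match comes first and the kappaB match follows it. The kappaB motif was found in 3 of the 9 member windows (B2m, H2-K1 and H2-D1), against 17.3% of all 27025 windows. The interferon regulatory factor motif was found in 4, these 3 and H2-T23, against 21.6%. The CRE core motif was found in 5 (B2m, H2-K1, H2-D1, Tap1 and Psmb9), against 17.9%. The CCAAT box was found in 7, against 34.5%, and the AP-1 motif in 0, against 6.87%. The starts of Psmb9 and Tap1 lie 226 bases apart on opposite strands, so the Tap1 window holds most of the Psmb9 window. The CRE core match of Psmb9 is the same bases as that of Tap1, and so is its CCAAT match. Each of these sites is counted for both genes above. These matches are letters in a sequence and no measurement of binding.

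Signals below are the authors' deposited MAS5 signals in arbitrary units, where 2 was the highest value that any of 27 bacterial control probe sets reached and is used as background. A probe set is called higher or lower where limma, on log2(signal + 16) over all 31526 probe sets tested, gave an adjusted p under 0.05. That large pseudocount shrinks the log2 change of dim genes, so signals and their ratios come first. Means are given ± SD over 3 arrays. The arrays of a group are labelled biological replicates, and p-values measure the spread between these pools. Jun, the gene to be induced, was dim in both groups: 1448694_at read 0.2, 2 and 1.2 in controls and 4.3, 2.6 and 1.5 in induced arrays, and 1417409_at read 2.5 or lower throughout (limma adjusted p = 0.446 and 0.810). In the authors' deposited table their induced over control ratios were 1.74 and 1.08, with unadjusted ANOVA p-values of 0.00663 and 0.328. Whether these probe sets match the inducible copy is not given in the sources used here, so the labels were not checked by them, and induced below means labelled as induced. The summed signal was 189287 to 214237 in controls and 222930 to 278500 in induced arrays. Control 2 stood apart, with 346 signals of 0 against 4653 to 7818 on the other arrays. The 5' to 3' signal of the Gapdh control probe sets, a sign of RNA quality, was 12.5% to 22.7% in controls and 25.8% to 28.9% in induced arrays, and its part in the results below was not tested.

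After 24 h of induction the light chain, both classical heavy chains, tapasin and Psmb8 were higher. Of the 28 member probe sets 25 were tested, 8 were called higher and 0 lower (11 and 0 at an unadjusted p under 0.05), read against 4.19% of all tested probe sets called higher and 1.35% lower. Calls depend on brightness, and among the 2868 tested probe sets with a mean signal over 10 the share called higher was 32.7%. The share called lower among these was 8.26%. Of the 8 members with a mean signal over 10, 7 were called higher, and all 8 had induced signals above all control signals, against 44.5% of bright probe sets. The 1 not called, Psmb9, passed the limit of 10 only through its induced arrays (7.33 ± 1.88 and 13.5 ± 3.86). Its place among the 8 is therefore no support for a rise, while the 7 called exceeded 10 in both groups. The 8 are probe sets of 5 genes, with 2 each for B2m, H2-K1 and H2-D1, so they are not separate observations. By the brightest probe set of each gene, 4 of 5 were called higher. The median log2 change was 0.61 over these 8 probe sets and 0.24 over all bright probe sets, and as ratios of means the medians were 1.77 and 1.33. With a pseudocount of 1 in place of 16, 0 members were called (6 higher and 1 lower at an unadjusted p under 0.05). A plain per-probe-set test without limma's shared variance called 0 as well (9 and 1). Without any 1 array, 6 to 9 member probe sets were called. The 6 probe sets called in every such fit were both of B2m, both bright ones of H2-D1, 1 of H2-K1 and 1 of Tapbp.

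**Figure D1:**
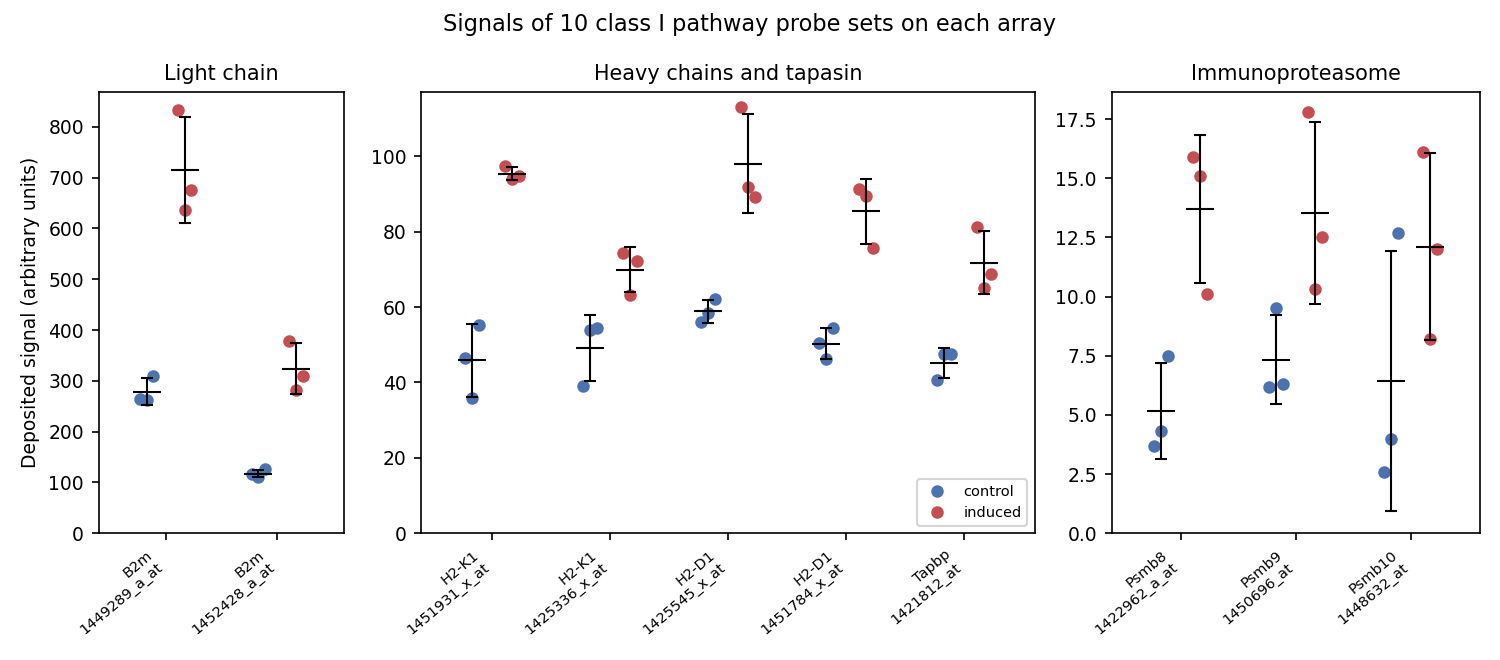
Deposited signal (arbitrary units, linear axes from 0, a separate scale in each panel) of 10 member probe sets on each of the 3 control (blue) and 3 induced (red) arrays, with mean and SD as black bars. The groups do not overlap for 9 of them, while control 3 of Psmb10 (12.7) lies within the induced range. The 10 shown are a part of the 28 member probe sets, of which 11 lay higher and 1 lower without overlap. Of all tested probe sets 10.9% lay higher and 7.12% lower without overlap. Among those with a mean signal over 10, 44.5% lay higher.

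B2m, the light chain shared by all class I molecules, showed the largest rise of (signal + 16) among the members. Its probe set 1449289_a_at read 263.3, 263 and 310.1 in the controls and 832.4, 636.3 and 676.5 in the induced arrays. Every induced signal was at least 2 times every control signal. The means were 278.8 ± 27.1 and 715 ± 104, a 2.56-fold difference, with a log2 change of 1.30 (SE 0.10, limma adjusted p = 0.000128). The second probe set, 1452428_a_at, read 116.3, 110.5 and 126 in controls and 379.1, 281.8 and 309.2 in induced arrays, again with induced 1 highest. That was 2.75-fold, with a log2 change of 1.34 (SE 0.10, limma adjusted p = 9.10e-05). In the authors' deposited table the induced over control ratios of these probe sets were 1.99 and 2.28, with unadjusted p-values of 1.83e-05 and 2.34e-05. Of the bright probe sets, 94.5% and 95.9% had a lower ratio of deposited means than these.

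H2-K1 and H2-D1 encode the classical class I heavy chains, which bind the peptide. The brightest H2-K1 probe set, 1451931_x_at, read 46.5, 35.8 and 55.3 in controls and 97.5, 94 and 94.8 in induced arrays. Its induced signals were close together while its control signals spread, and the groups did not overlap (45.9 ± 9.77 and 95.4 ± 1.83). This was 2.08-fold, a log2 change of 0.86 (SE 0.10, limma adjusted p = 0.00113). A further H2-K1 probe set, 1425336_x_at, read 39.1, 53.9 and 54.5 in controls and 74.3, 63.2 and 72.3 in induced arrays. It was 1.42-fold higher, with a log2 change of 0.41 (limma adjusted p = 0.0425), a ratio near the bright median of 1.33. That call was lost without any 1 array other than induced 2, with adjusted p-values up to 0.155 without induced 3.

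H2-D1 was read above a signal of 10 on average by 2 of its 9 probe sets. Probe set 1425545_x_at read 56, 58.5 and 62.1 in controls and 113.2, 91.9 and 89.1 in induced arrays. It rose 1.67-fold, with a log2 change of 0.60 (SE 0.08, limma adjusted p = 0.00224). Probe set 1451784_x_at read 50.4, 46.1 and 54.4 in controls and 91.3, 89.4 and 75.6 in induced arrays. It rose 1.70-fold, by 0.61 on the log2 scale (SE 0.07, limma adjusted p = 0.00140). The groups did not overlap for either, and both ratios lay within the middle of the bright probe sets, with 70.0% and 71.8% of these lower.

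Of the 15 probe sets assigned to H2-K1, H2-D1 or both, 12 carry the suffix x_at, which marks sets with probes that can also match other transcripts. Class I heavy chain genes are near-identical over long stretches, so each of these signals may hold RNA of several class I genes. Besides the 4 bright ones described above, the other 11 had a mean signal of 10 or less. None of these was called, and 1451593_at and 1451934_at were too dim to be tested. Of all tested probe sets, bright ones included, 4.19% were called higher and 1.35% lower, so missing calls are usual. The shared probe set 1424948_x_at read 4.5, 3.8 and 6.8 in controls and 3.7, 4.7 and 5.7 in induced arrays, with overlapping groups and an adjusted p of 0.940 (limma). Within H2-D1, 1427651_x_at was at background in both groups. It was the 1 member with every control signal above every induced one, against 7.12% of all tested probe sets (1.40 ± 0.26 and 0.23 ± 0.23; limma adjusted p = 0.371). Probe set 1450170_x_at ran the other way at 1.63 ± 1.02 and 4.03 ± 0.91 (limma adjusted p = 0.147). Probe set 1451683_x_at was at 4.80 ± 1.87 and 4.13 ± 1.17 (limma adjusted p = 0.885), while the authors' deposited table puts it higher in induced arrays. Probe sets for 1 gene thus gave different answers near background, and the account of these genes rests on 4 probe sets.

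**Figure D2:**
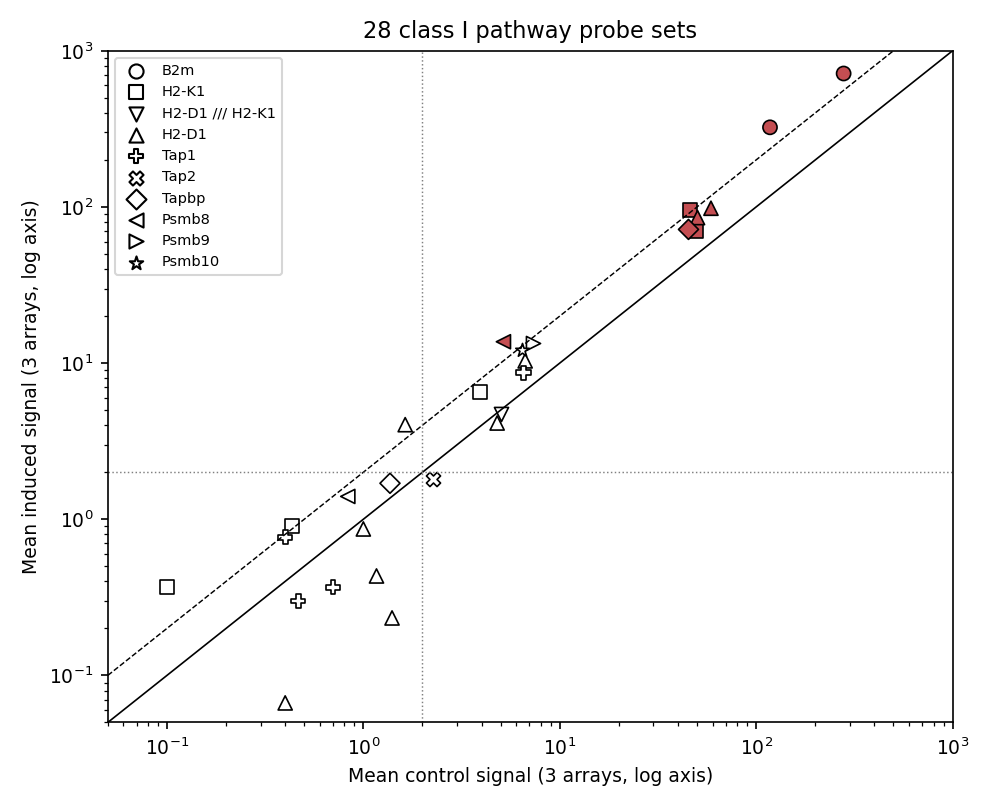
Mean signal of all 28 member probe sets in controls (x) and induced arrays (y), both on log axes in arbitrary units, with red symbols for the 8 called higher. The solid line marks equal means, the dashed line a 2-fold difference and the dotted lines the background signal of 2; the probe sets called lie above the solid line, and those near background scatter on both sides of it.

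The rise of B2m was compared with that of its partners within each array, a comparison chosen after the data were seen and free of any scaling between arrays. The log2 ratio of B2m over H2-D1 was 2.24 ± 0.08 in controls and 2.86 ± 0.07 in induced arrays, with no overlap, so B2m rose 1.54 times as much as H2-D1. Over Tapbp the ratio changed 1.61-fold, also without overlap. Both gave an exact permutation p of 0.1 (two-sided), the smallest that 3 against 3 arrays allow, and an adjusted p of 0.15 over the 3 pairs. Over H2-K1 the ratio changed 1.21-fold with overlapping groups (exact permutation p = 0.3). Each gene was read by its brightest probe set, which for H2-K1 was 1451931_x_at, 2.08-fold higher in induced arrays. The other bright H2-K1 probe set, 1425336_x_at, was only 1.42-fold higher and was not set against B2m. The smaller change over H2-K1 therefore holds for 1451931_x_at alone. Levels of different probe sets are not comparable, and only the change of each ratio is read here.

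Of the transporter and loading genes, Tapbp was called higher and Tap1 and Tap2 were not, and no test compared their changes. Tapbp encodes tapasin, the bridge between TAP and the heavy chain. Its brighter probe set, 1421812_at, read 40.6, 47.5 and 47.6 in controls and 81.2, 65.2 and 68.9 in induced arrays. It rose 1.59-fold without overlap, with a log2 change of 0.52 (SE 0.08, limma adjusted p = 0.00419). Of the bright probe sets 65.4% had a lower ratio. The call was lost in a limma fit with an intensity trend (adjusted p = 0.122). The other Tapbp probe set lay near background at 1.37 ± 1.42 and 1.70 ± 0.20. Tap1 and Tap2 encode the subunits of the peptide transporter. The brightest of 4 Tap1 probe sets read 5.7, 6.2 and 7.7 in controls and 5.9, 9.8 and 10.3 in induced arrays, so induced 1 fell within the control range. Its log2 change was 0.13 (SE 0.08, limma adjusted p = 0.551), and the other Tap1 probe sets were at background on every array. Tap2 read 1.9, 2.8 and 2.1 in controls and 2.1, 3.2 and 0.1 in induced arrays, close to background throughout (limma adjusted p = 0.887). Tap2 was too close to background for a change to be read. Of the 20 member probe sets with a mean signal of 10 or less, 3 were not tested and 1 was called. This is to be read against 4.19% of all tested probe sets and 32.7% of the bright ones called higher. Tap1 was dim, so its missing call does not show that it was unchanged.

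The immunoproteasome subunits were dim, between 2.6 and 17.8 by their brightest probe sets. Psmb8, the chymotrypsin-like subunit also known as LMP7, read 3.7, 4.3 and 7.5 in controls and 15.9, 15.1 and 10.1 in induced arrays. The groups did not overlap, and the 2.65-fold difference gave a log2 change of 0.49 (SE 0.09, limma adjusted p = 0.0133). The call was lost without control 1 (adjusted p = 0.0527) or control 2 (0.0780). In the authors' deposited table the ratio was 2.48, and this probe set and 1452428_a_at of B2m were the 2 members on their list of at least 2-fold differences, which holds 1.53% of all probe sets as higher. Psmb9, known as LMP2, read 6.2, 9.5 and 6.3 in controls and 17.8, 10.3 and 12.5 in induced arrays. Its groups did not overlap, but the 1.85-fold difference was not called (limma adjusted p = 0.0849). Psmb10, known as MECL-1, read 2.6, 4 and 12.7 in controls and 16.1, 8.2 and 12 in induced arrays, and the high control 3 made the groups overlap (limma adjusted p = 0.371). Without control 3, Psmb10 was called (adjusted p = 0.0412), and without induced 2, Psmb9 was (0.0393).

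In the standard proteasome the places of these subunits are held by Psmb5, Psmb6 and Psmb7, of which 2 of 3 were called higher. All 3 had a mean signal over 10, and 32.7% of all bright probe sets were called higher. Psmb5, the partner of Psmb8, read 7.6, 6.7 and 11.6 in controls and 24.9, 21 and 21.1 in induced arrays, a 2.59-fold rise (limma adjusted p = 0.00153). Psmb7, the partner of Psmb10, rose from 13.3 ± 3.81 to 32.1 ± 5.65 (limma adjusted p = 0.00444). Psmb6, the partner of Psmb9, read 1.59 times as high in induced arrays, with overlapping groups (limma adjusted p = 0.156). Set against the partner within each array, on plain signals (a scale added after seeing the data), the log2 ratio changed by 0.04 for Psmb8 over Psmb5, by 0.23 for Psmb9 over Psmb6 and by -0.10 for Psmb10 over Psmb7. The groups overlapped for each pair (exact permutation p = 1, 0.6 and 0.8, two-sided; adjusted p = 1 for all 3). On (signal + 16), which shrinks the dimmer gene of a pair more, the changes were -0.15, -0.05 and -0.37 (exact permutation p = 0.2, 0.8 and 0.1, the last without overlap and the smallest possible; adjusted p = 0.3, 0.8 and 0.3). The sign thus turned with the pseudocount for 2 of the 3 pairs. For Psmb8 over Psmb5 the change was -0.37 over the mean of all probe sets and -0.09 without induced 3. With 3 arrays a group, these values do not show that the subunit pairs changed alike.

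**Figure D3:**
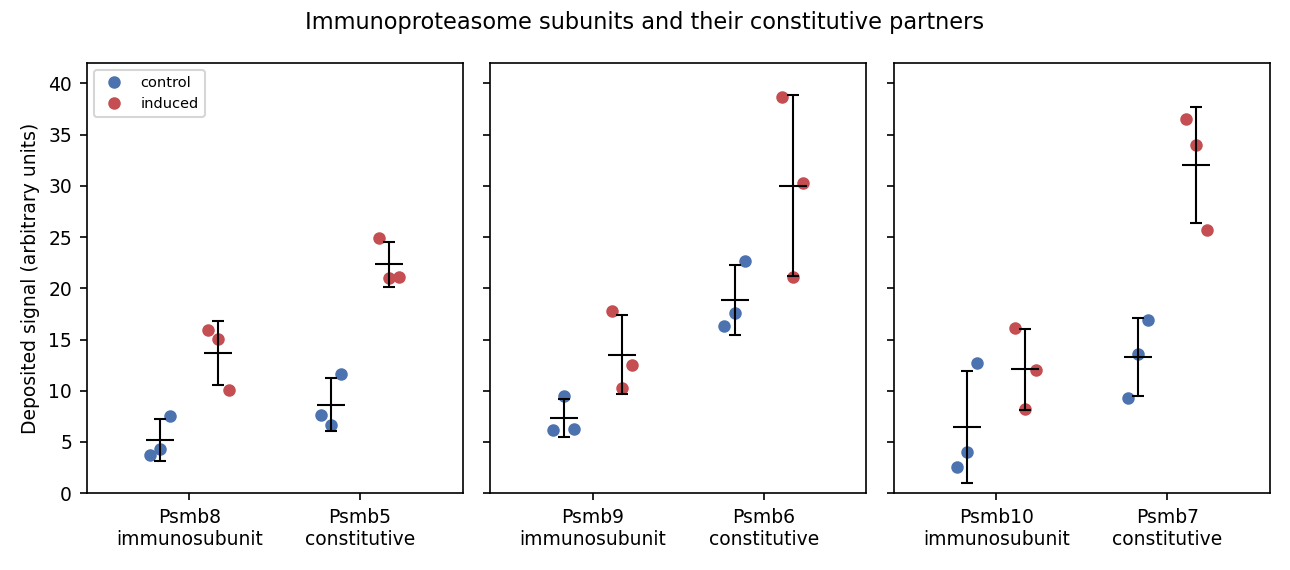
Deposited signal (arbitrary units) of each immunoproteasome subunit and its constitutive partner on 3 control (blue) and 3 induced (red) arrays, with mean and SD as black bars. Psmb5 and Psmb7 have induced signals above all control signals, as do Psmb8 and Psmb9; levels are not comparable between probe sets.

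Several other subunits of the proteasome core also rose. Of 12 other core subunits tested, 7 were called higher and 0 lower (9 and 0 at an unadjusted p under 0.05, limma). All 7 were among the 10 with a mean signal over 10, to be read against 32.7% of all bright probe sets. Psma3 rose from 15.7 ± 3.66 to 37.5 ± 6.41, Psma1 from 14.5 ± 3.56 to 30.6 ± 2.87, and Psma2 from 17.7 ± 6.39 to 39.9 ± 9.67. Psma6, Psmb3 and Psma5 rose 1.82-fold, 1.61-fold and 1.45-fold. Psmb1 (1.66-fold), Psmb4 (1.19-fold) and Psma4 (1.38-fold) were not called. The count was 4, 3, 5, 5 and 5 without control 1, control 2, control 3, induced 1 and induced 3, and it was 5 after quantile normalization, 4 after scaling to 1 trimmed mean, 3 at a pseudocount of 64, 2 with no filter and 0 at a pseudocount of 1. Among 10 activators and assembly factors, Psme1, a subunit of the interferon-inducible activator PA28, rose from 21.7 ± 5.75 to 47.5 ± 10.2 (limma adjusted p = 0.00863). Its partner Psme2 read 1.44 times as high in induced arrays with overlapping groups (limma adjusted p = 0.351). The assembly factor Pomp was at 16.2 ± 4.80 and 36.2 ± 15.6 (limma adjusted p = 0.0810). Psme4, an activator of the standard proteasome, was the 1 called lower, at 11.7 ± 1.88 and 5.43 ± 2.30, and its call was lost without any 1 array other than induced 2 (adjusted p up to 0.125 without control 3).

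Among 11 chaperones and editing factors of the endoplasmic reticulum, 2 were called higher and 1 lower. All of these were among the 6 with a mean signal over 10. Of all bright probe sets 32.7% were called higher and 8.26% lower, so the share called higher was near that of bright probe sets. Pdia3, known as ERp57 and a part of the peptide-loading complex, rose from 10.4 ± 2.46 to 24.2 ± 3.41 (limma adjusted p = 0.00273). Canx, the membrane chaperone that folds new heavy chains, rose from 30.6 ± 5.05 to 49.2 ± 4.22 (limma adjusted p = 0.00833). Calr, the soluble chaperone of the loading complex, was at 99.7 ± 23.5 and 96.3 ± 19.7 with overlapping groups (limma adjusted p = 0.959). Hsp90b1, a general chaperone known as GRP94, fell from 25.7 ± 6.24 to 13.6 ± 3.56 (limma adjusted p = 0.0369), a call lost without control 2, control 3, induced 2 or induced 3 (adjusted p up to 0.133). The peptide trimmer Erap1 and the editor Tapbpl read at most 2.6, near background. Of the 5 Sec61 channel genes tested, 0 were called (1 higher at an unadjusted p under 0.05, limma), and likewise 0 of 7 cytosolic peptidases (0 at an unadjusted p under 0.05). Both lists held 2 genes with a mean signal over 10. Of all tested probe sets 4.19% were called higher and 1.35% lower.

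Other H2 class I heavy chains had little signal. Of 8 tested through a probe set of their own, 0 were called in either direction (0 at an unadjusted p under 0.05, limma), and their median log2 change was -0.01. The only probe set for H2-T23, which encodes Qa-1, is shared with a second transcript and so lies outside the rule. It read 22.6, 15.9 and 13.2 in controls and 27.7, 25.4 and 23.5 in induced arrays, with no overlap but a gap of less than 1 between control 1 and induced 3 (limma adjusted p = 0.0916). A probe set shared by H2-Q7, H2-Q8 and H2-Q9 was at 6.17 ± 2.25 and 10.4 ± 0.59 (limma adjusted p = 0.0850). A probe set shared by H2-T9, H2-T10 and H2-T22 was at 5.47 ± 1.10 and 10.6 ± 2.85 (limma adjusted p = 0.0631). These were higher on every induced array and not called. Among the other 5 shared class I probe sets, 1 for H2-Q6 was also higher on every induced array (5.67 ± 0.75 and 8.30 ± 0.85, limma adjusted p = 0.132) and 1 for H2-Q4 and H2-Q6 had overlapping groups (2.10 ± 1.74 and 3.90 ± 1.31). A second one for H2-T9, H2-T10 and H2-T22 was at background, as was 1 of 2 for H2-T3 and H2-T18, and the other of these was lower in the mean (1.17 ± 1.16 and 0.57 ± 0.45). None of the 8 was called, and 2 of them were too dim to be tested.

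Regulators of class I genes were mostly dim, with 6 of 26 tested transactivators and interferon signalling genes over a mean signal of 10 (0 called). Near the shares of all tested probe sets (4.19% higher and 1.35% lower), 1 of the 26 was called higher and 0 lower. It was Nlrc5, the class I transactivator, which read 6.2, 5.1 and 4 in controls and 10.9, 16 and 9.7 in induced arrays, 2.39-fold (limma adjusted p = 0.0188). Its call was lost without control 2 (adjusted p = 0.0836) or control 3 (0.0864) and after quantile normalization (0.0988). Irf1 was at 4.63 ± 2.86 and 7.93 ± 2.51 (limma adjusted p = 0.430). Irf8, a lineage factor of monocytes, was at 11.8 ± 2.62 and 5.97 ± 2.11, lower on every induced array and not called (limma adjusted p = 0.0543). Of 13 interferon gamma-inducible genes tested, 0 were called (3 higher at an unadjusted p under 0.05, limma). Among them Gbp7, an interferon-induced GTPase, was at 7.33 ± 2.20 and 17.1 ± 6.78 (limma adjusted p = 0.0634), and Cxcl10 was at 2.3 or lower on every array. Of 8 receptors for class I molecules tested, 0 were called (1 higher at an unadjusted p under 0.05). Only 2 of the interferon gamma-inducible genes and 1 of the receptors had a mean signal over 10. Their counts are to be read against 4.19% of all tested probe sets called higher.

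**Figure D4:**
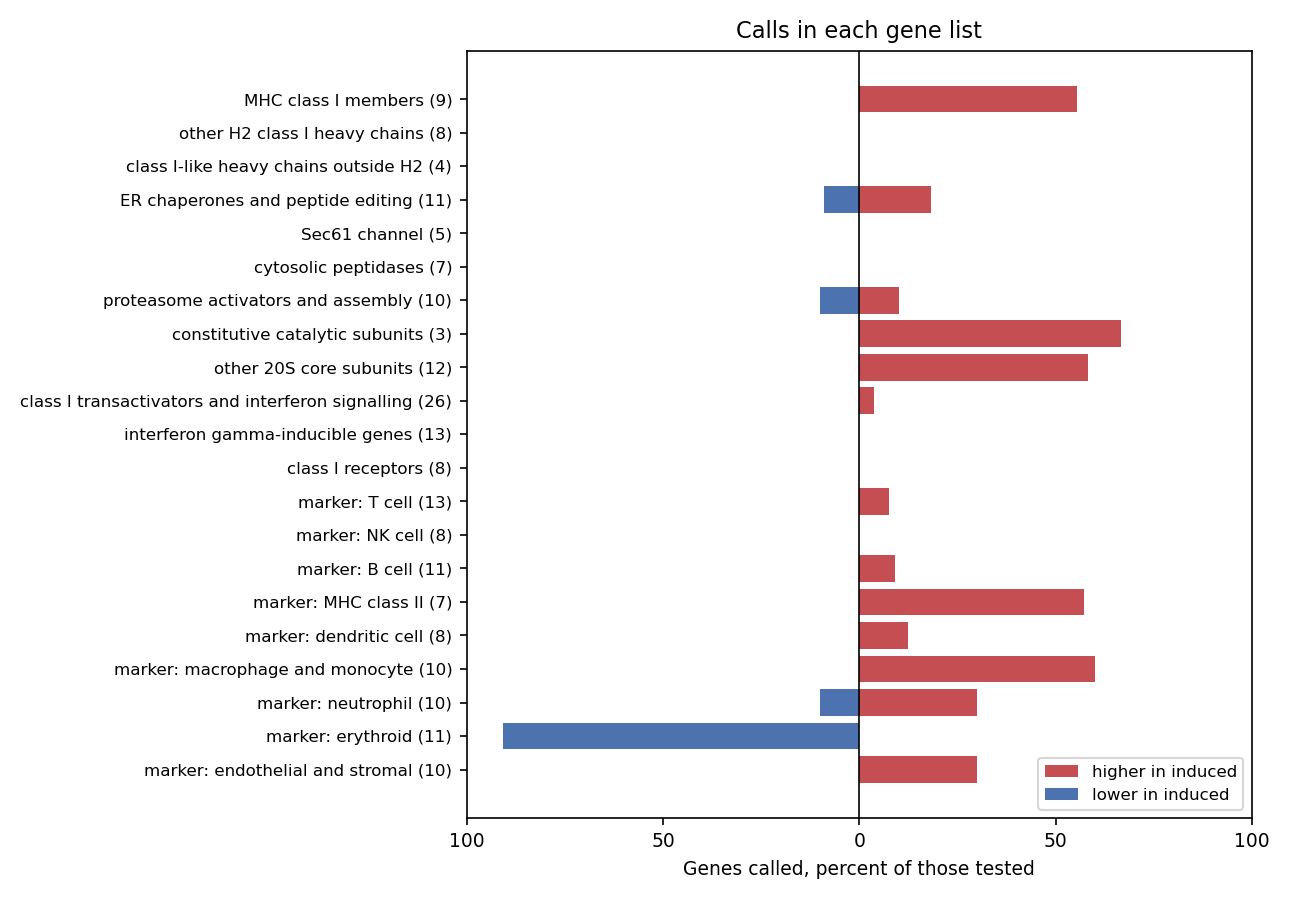
Share of the tested genes of each list called higher (red, to the right) or lower (blue, to the left) in induced arrays, in percent, each gene by its brightest probe set and the number tested in brackets. The class I list stands at 5 of 9 higher, the erythroid marker list at 10 of 11 lower and the interferon gamma-inducible list at 0 of 13. These lists held 5, 8 and 2 genes with a mean signal over 10, so their shares are not directly comparable. Of all tested probe sets 4.19% were called higher and 1.35% lower, and of the bright ones 32.7% and 8.26%.

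Markers of several cell types also moved. In bulk marrow, a change in the share of a cell type and a change of RNA per cell cannot be told apart. The counts are to be read against 4.19% of all tested probe sets and 32.7% of the bright ones called higher, and 1.35% and 8.26% called lower. Erythroid markers fell in 10 of 11, and their summed signal was 1213 to 1408 in controls and 281 to 357 in induced arrays. Macrophage and monocyte markers rose in 6 of 10, with sums of 65.4 to 90.9 and 119 to 149; without 1 array the count was 2 to 5, lowest without induced 1, and it was 4 after quantile normalization. MHC class II genes rose in 4 of 7, with sums of 53.6 to 62.7 and 169 to 214. Of these, Cd74 rose 3.21-fold and H2-Ab1 4.14-fold (limma adjusted p = 0.000381 and 0.000121). B cell markers rose in 1 of 11 (Cd79b), with sums of 119 to 129 and 136 to 172, and Pax5 was at background on every array. Dendritic cell markers rose in 1 of 8, Itgax, which lost its call without control 2, control 3, induced 1 or induced 3. T cell markers rose in 1 of 13, Il7r, which lost its call without any 1 array other than control 2, and their sums were 16.7 to 26.6 and 25.4 to 29.5. Cd3g, Zap70, Thy1, Cd5 and Cd6 were at background on every array. Natural killer cell markers were called in 0 of 8 (2 higher at an unadjusted p under 0.05, limma). Neutrophil markers were called higher in 3 of 10 and lower in 1, and this balance turned with the scaling, to 2 higher and 3 lower after quantile normalization and 1 higher and 3 lower after scaling to 1 bright median. Without 1 array the counts were 1 to 5 higher and 0 to 2 lower. Their summed signal was 8523 to 9749 and 10056 to 11723. Of the 10 endothelial and stromal markers 3 were called higher and 5 were at background on every array. The part of these cell types in the class I values was not tested.

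Scaling between arrays changed the size of these ratios, and among the 8 bright member probe sets both of B2m had the highest ratios under each scaling run. After scaling each array to 1 median of the bright probe sets, the ratios were 2.10 and 2.24 for B2m, 1.72 and 1.18 for H2-K1, 1.36 and 1.40 for H2-D1 and 1.30 for Tapbp. After quantile normalization they were 1.86 and 1.99, 1.71 and 1.18, 1.35 and 1.41, and 1.30. The groups of 1425336_x_at of H2-K1 overlapped after quantile normalization, and those of Psmb9 overlapped after scaling to the bright median. All other bright members kept groups apart under these scalings. The calls of 7 of the 8 members were kept under both, the exception being 1425336_x_at (adjusted p = 0.306 after quantile normalization).

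**Figure D5:**
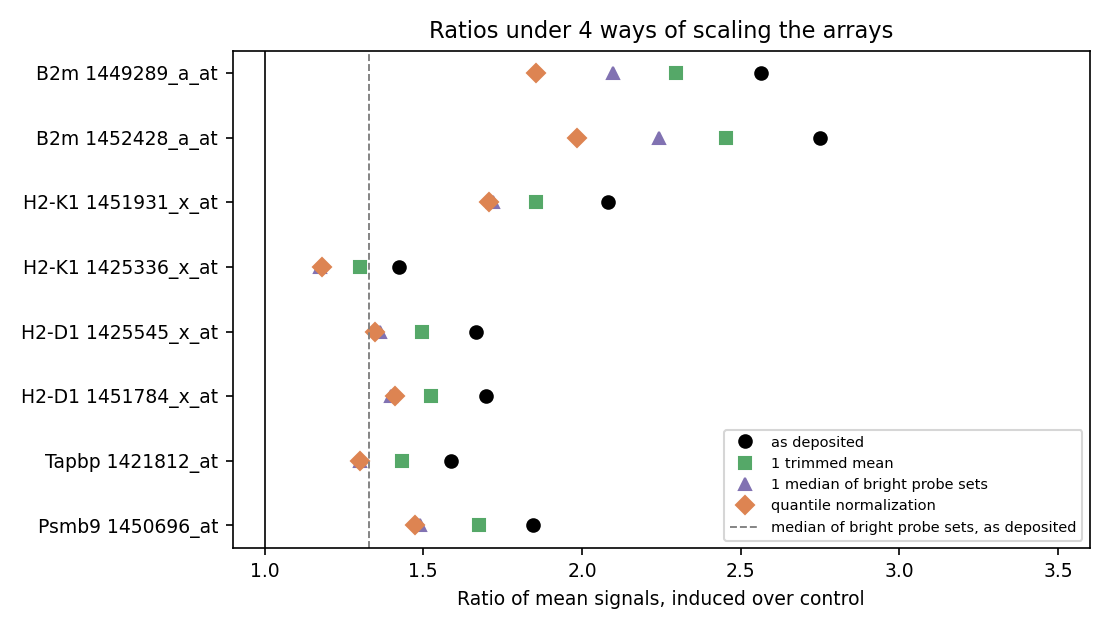
Ratio of mean signals, induced over control, of the 8 member probe sets with a mean signal over 10, as deposited and under 3 other scalings of the arrays, with the median ratio of all 2868 bright probe sets as deposited (1.33) as a dashed line. Both B2m probe sets stay at 1.86 or above under each scaling, and 1425336_x_at of H2-K1 falls to 1.18.

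The bright members varied together over the 6 arrays. Pearson's r between pairs of the 8 bright probe sets, on the log2 scale, ran from 0.70 to 1.00 with a median of 0.93 over 28 pairs, as a description of arrays that share scaling and group. By the mean standardized profile of the 9 genes, the 5 genes most like it among 1839 candidates outside the lists were Ssu72, Ets2, Fnip1, Slpi and Cyba. Their correlations over the 6 arrays were 0.999, 0.998, 0.996, 0.996 and 0.995. Ets2 was at 16.6 ± 4.76 and 41.1 ± 4.68, Slpi at 32.9 ± 6.42 and 81.3 ± 14.1, and Cyba, a subunit of the phagocyte oxidase, at 24.9 ± 4.23 and 57.9 ± 8.72.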

How the data were processed

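Bone marrow RNA was hybridised to 6 Affymetrix arrays, which the labels divide into 3 control and 3 induced. The deposited values are signal intensity on a linear scale, and the submitters' processing notes name MAS5, without a version; the scaling is not given in the sources used here. Per the file headers, the authors' ANOVA table holds a p-value, unadjusted, and the ratio of control to induced; the text gives this ratio turned round. Of all signals, 76.9% were 2 or lower, and precision is limited by having 3 arrays per group.

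Signals were transformed as log2(signal + 16). The 64 control probe sets and those with a mean at or under the 30th percentile were dropped. Induced was compared with control by limma 3.58.1 in R 4.3.3 (lmFit, eBayes), with Benjamini-Hochberg adjustment over 31526 probe sets. On simulated signals it recovered 48% of 100 probe sets changed 2-fold and 76% of 100 changed 4-fold, and 7.46% of calls were false. Outside the members, a gene was read by its brightest probe set with 1 symbol. Members and the 21 gene lists were chosen with earlier results of these data known, as were the background of 2 and the bright limit of 10. The rule named every member probe set, up to 6 called and 3 bright uncalled genes of each list, and the 5 most similar genes; the text gives part of these, and Cxcl10, Irf1, Irf8, Erap1, Tapbpl and the shared H2 probe sets were picked with their values in view. The alternatives run were other scalings, pseudocounts, filters, variance models, a plain test, the replicate number as a block, the authors' p-values and leaving out each array. Ratios within arrays were compared with an exact permutation test. Figures were drawn with matplotlib 3.10.9. The result for 1 gene of these lists is not reported here.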

Additional observations from a re-analysis of the deposited data

How the results depend on the processing

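The count of members called higher was 8, and 6 to 9 without 1 array; it was 0 at a pseudocount of 1, 0 with the plain per-probe-set test and 5 with the authors' deposited p-values after adjustment, and 0 members were called lower under any alternative run. Over the whole array the main counts were 1320 higher and 427 lower. The higher count was 110 at a pseudocount of 1, 801 at a pseudocount of 64 and 595 with no filter, and 879 to 1363 without 1 array (lowest without control 2). The lower count was 101 at a pseudocount of 1, 246 with no filter, 852 after quantile normalization and 866 after scaling to 1 median of bright probe sets, a scaling added after seeing the data, and 277 to 437 without 1 array (lowest without induced 3). The share of calls that were higher was 75.6% as deposited, 53.3% after quantile normalization, 51.0% after scaling to 1 bright median and 63.5% after scaling to 1 trimmed mean. On plain signals, added after seeing the data, the ratio of Psmb8 over Psmb5 turned from -0.15 to 0.041 and that of Psmb9 over Psmb6 from -0.05 to 0.23. The latter also turned to 0.18 at a pseudocount of 1 and to 0.0073 after quantile normalization, and ran from -0.16 to 0.038 without 1 array (highest without control 2). Tap2 turned from -0.04 to 0.030 without induced 3, in a range of -0.097 to 0.030. Psmb8 also lost its call at a pseudocount of 64 (adjusted p = 0.0530) and with no filter (0.0830). With the replicate number as a block 6 members were called, not counting 1425336_x_at of H2-K1 (adjusted p = 0.0991) and Psmb8 (0.0644), and 1052 probe sets were higher and 325 lower. Deviations of same-numbered arrays correlated at -0.07, 0.04 and -0.03, and those of differently numbered arrays at -0.13 to 0.15. No pairing by number was seen, but 3 arrays a group cannot exclude it. With an intensity trend 5 of the 8 called members were kept, and Psmb9 and Psmb10 were called. Causes of these changes were not tested.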
